A study of Saccharomyces cerevisiae with 46 samples.

Results

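The 10 features described here are 9 chromosomal yeast genes of pyrimidine nucleotide supply and the URA3 marker of the reporter plasmid, out of 5698 features in the gene count table. They were taken by name: URA2, URA4, URA1, URA5, URA10, URA6, URA7, FUR1, FUR4 and the plasmid row for URA3. All 10 passed the filter on low counts, which left 5144 features to test. The cells were Saccharomyces cerevisiae BY4741, a MATa laboratory strain whose own URA3 is deleted, grown in synthetic complete medium lacking uracil for 4 h at 30 °C and 200 rpm to an OD600 of 0.7. RNA was read from transcript 3′ ends (QuantSeq REV), so that each transcript gives 1 end whatever its length.

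Each reporter strain carried a low copy plasmid with an mCherry gene. In pRPS3-tRPS3 (12 libraries) mCherry stood between the RPS3 promoter and terminator, in pPGK1-tRPS3 (10 libraries) between the PGK1 promoter and the RPS3 terminator, and in pTSA1-tTSA1 (10 libraries) between the TSA1 promoter and terminator. Every context came with 5 terminators. WT is unmodified, and the other 4 have 9 bp inserts at 3 sites, in which the letters of the name stand for random sequence (N) or for the study's motifs A, T and H: modNNN, modNTN, modNAA and modHTH. There were 4 libraries for modNNN in pRPS3-tRPS3 and 2 for each of the other plasmids, 15 in all. Another 2 libraries came from cells grown in the same medium with POT1-ccdB, which holds no reporter. The labels do not say whether libraries of 1 plasmid came from separate cultures or transformants, so p-values measure the spread between these libraries, which may be technical. The other 12 samples of the series were not analysed here.

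Yeast makes UMP, the parent of all pyrimidine nucleotides, in a fixed order of steps. URA2 encodes the large bifunctional enzyme that starts the pathway and is inhibited by the end product UTP. URA4 encodes dihydroorotase, and URA1 dihydroorotate dehydrogenase, which makes orotate. URA5 and URA10 encode the major and minor orotate phosphoribosyltransferases, and URA3 the decarboxylase that yields UMP. URA6 encodes the UMP kinase, and URA7 the major CTP synthetase. FUR4 is the uracil permease and FUR1 the uracil phosphoribosyltransferase of the salvage route. The zinc cluster protein Ppr1 binds dihydroorotate or orotate, intermediates that lie upstream of the URA3 step, and then activates URA1, URA3, URA4 and URA10.

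The letters known for Ppr1 binding are TTCGG and CCGAA on either side of any 6 bases, a pattern that reads the same on both strands. In the 500 bases before the start codon of 6002 protein coding genes (RefSeq, build R64), 2 genes hold an exact match, or 0.0333% of them, and URA1 is the only one among the 9 chromosomal genes. The URA1 site lies at chrXI:25032-25047, 167 bases before the start codon on the plus strand. It is shown because URA1 alone of the 9 holds an exact match, and the levels of all 9 are set against URA3 below. The capitals mark the matched letters.
URA1: TTCGGcattcgCCGAA
The absence of a match elsewhere says only that these exact letters are not in that window.

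In R64 the reading frame of URA1 (YKL216W) is at chrXI:25215-26159, that of URA2 (YJL130C) at chrX:165723-172367 on the minus strand, and that of URA4 (YLR420W) at chrXII:963785-964879. URA5 (YML106W) is at chrXIII:56773-57453 and URA10 (YMR271C) at chrXIII:806865-807548 on the minus strand. On the minus strand also lie URA6 (YKL024C) at chrXI:392526-393140 and URA7 (YBL039C) at chrII:143989-145728. FUR1 (YHR128W) is at chrVIII:362115-362765 and FUR4 (YBR021W) at chrII:281443-283344. The plasmid row is named plasmid_URA3. The transcripts deposited for these genes end 65 nt after the stop codon in URA5, 132 nt in URA4, 157 nt in URA10, 161 nt in URA6, 187 nt in FUR4, 263 nt in URA7, 319 nt in FUR1 and 401 nt in URA1. URA2 has no transcript in that annotation. Of the 2082 nt of the URA7 transcript, 1918 nt lie under YBL039C-A on the same strand, a feature with 0 counts in every library, so that the level of URA7, which never passed 30 counts, is uncertain. The last 42 nt of the FUR4 transcript overlap the start of POA1 on the same strand, and reads there could be lost to counting.

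Libraries held between 1013603 and 3849179 counts. The chromosomal URA3 and MET17, both deleted in BY4741, had 0 counts in all 34 libraries, and LEU2 had at most 2. HIS3, which the strain carries as a partial deletion, had 94 to 427 counts. All 4 MATa genes were present, with MFA1 at 216 to 4565 counts, while the alpha-factor genes MF(ALPHA)1 and MF(ALPHA)2 had at most 5 and 7. In POT1-ccdB the plasmid URA3 row holds 0, although these cells too grew without uracil. The marker of that plasmid is not given in the sources used here, so the 0 was not taken as a level and was not used. Replicate 2 of pPGK1-tRPS3 modNAA stood apart, with URA6 at 2.92 CPM (9 counts) and URA2 at 673 CPM. CPM here are counts divided by the TMM-scaled library total and put on the usual common scale.

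Plasmid URA3 was low with pTSA1-tTSA1, and of the other members only URA6, described below, differed between contexts by a similar amount. The lowest, median and highest levels of plasmid URA3 were 3059.9, 5004 and 6609.5 CPM with pRPS3-tRPS3, and 2999, 5375 and 8196 CPM with pPGK1-tRPS3. With pTSA1-tTSA1 they were 1331, 1736 and 3499 CPM. Of the 10 pTSA1-tTSA1 libraries, 9 lay below every library of the other contexts, and replicate 2 of modNAA was the exception. The edgeR quasi-likelihood test, adjusted by Benjamini-Hochberg over all features, gave a log2 fold change of −1.50 (SE 0.13, adjusted p = 7.28e-10) against pRPS3-tRPS3 and −1.61 (SE 0.14, adjusted p = 2e-10) against pPGK1-tRPS3. Between pPGK1-tRPS3 and pRPS3-tRPS3 the difference was 0.12 (SE 0.13, adjusted p = 0.514). The order of the contexts was therefore pPGK1-tRPS3, pRPS3-tRPS3 and pTSA1-tTSA1, in which the first neighbours did not differ beyond their spread. Fewer plasmids or plasmid-bearing cells and less transcript per plasmid cannot be told apart in these bulk libraries.

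**Figure D1:**
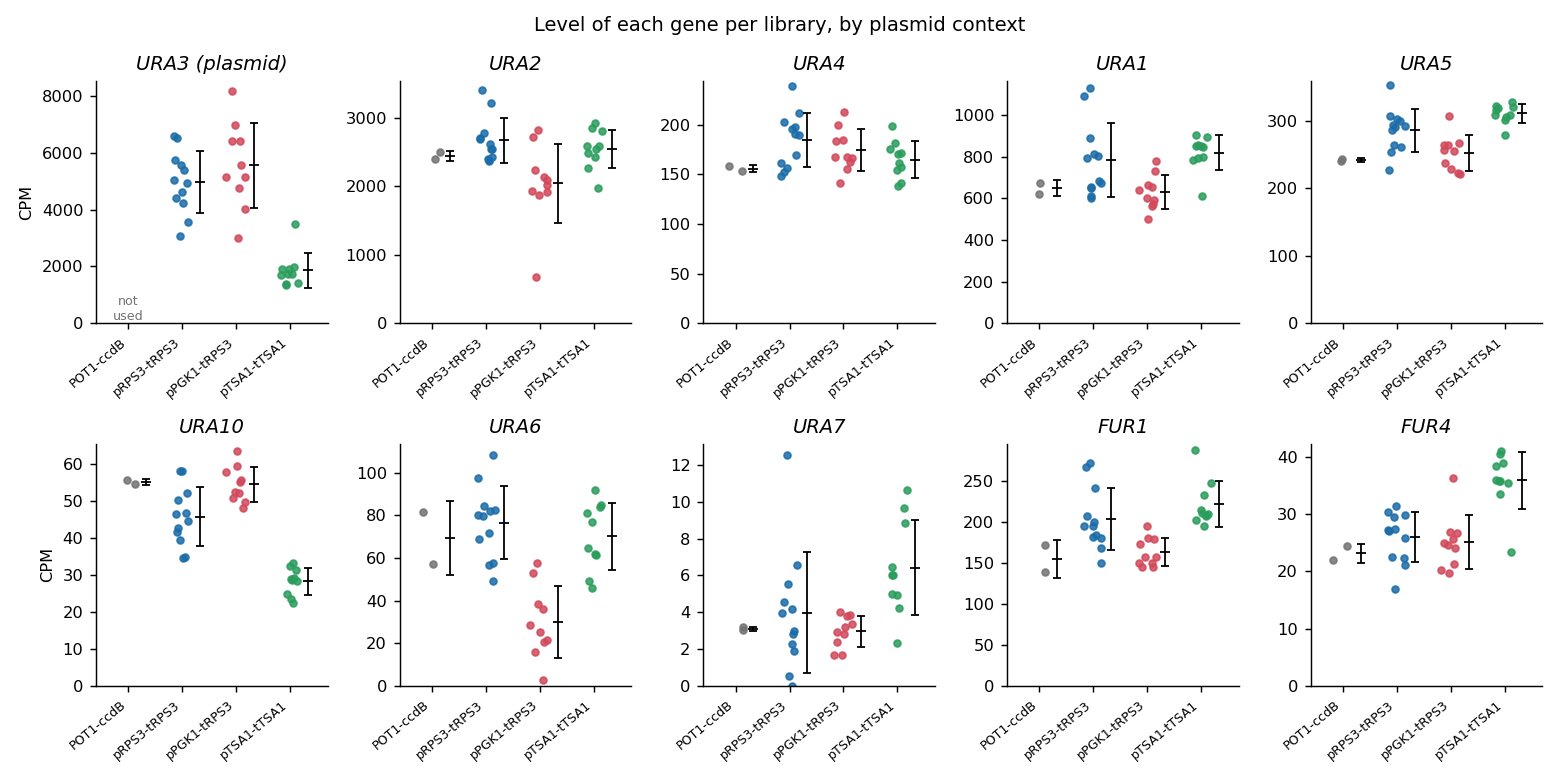
Level of each gene in CPM (vertical axis, linear from 0) in every library, by plasmid context; points are libraries, and the bar beside them is the mean ± SD (n = 2, 12, 10 and 10). Plasmid URA3 and URA10 are low with pTSA1-tTSA1 (means 1859 and 28.3 CPM), and URA6 is low with pPGK1-tRPS3 (mean 30.0 CPM).

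Of the 10 members, 6 passed an adjusted p of 0.05 between pTSA1-tTSA1 and pRPS3-tRPS3, where 47.9% of all features did. In that comparison URA5, URA7, FUR1 and FUR4 were higher with pTSA1-tTSA1 (4 members, beside 24.2% of all features), and URA10 and plasmid URA3 lower (2 members, beside 23.8%). Between pPGK1-tRPS3 and pRPS3-tRPS3 it was also 6 of 10, against 38.3% of all features, with URA10 higher (1 member, beside 17.7%) and URA2, URA1, URA5, URA6 and FUR1 lower with pPGK1-tRPS3 (5 members, beside 20.6%). Between pTSA1-tTSA1 and pPGK1-tRPS3, 9 of 10 passed, against 61.2% of all features. There 7 were higher with pTSA1-tTSA1 (beside 32.1%), URA10 and plasmid URA3 were lower (beside 29.0%), and URA4 did not pass. The median absolute log2 fold change of the members in these 3 comparisons was 0.18, 0.18 and 0.48, beside 0.23, 0.18 and 0.32 over all features. The comparisons share libraries with each other. Scaling by library totals in place of TMM moved the median of all features by 0.17 for pPGK1-tRPS3 minus pRPS3-tRPS3, −0.05 for pTSA1-tTSA1 minus pRPS3-tRPS3 and −0.22 for pTSA1-tTSA1 minus pPGK1-tRPS3, and the values given here are relative to the TMM scale. Under library totals, URA10 kept its call in all 3 comparisons, URA6 in both with pPGK1-tRPS3, and plasmid URA3, URA7 and FUR4 in both with pTSA1-tTSA1. URA2, URA1 and URA5 then passed in none of the 3, and FUR1 only between pTSA1-tTSA1 and pPGK1-tRPS3.

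Contexts also differed in 8 stress and reserve carbohydrate genes (HSP12, HSP26, CTT1, GPH1, HXK1, GSY2, TPS2, SSA4). These genes were chosen as a culture state list with earlier results of these data known. Their summed level was 1137 to 1583 CPM with pTSA1-tTSA1, 1211 to 2779 CPM with pRPS3-tRPS3 and 2055 to 3355 CPM with pPGK1-tRPS3. Their part in the differences below was not tested.

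**Figure D2:**
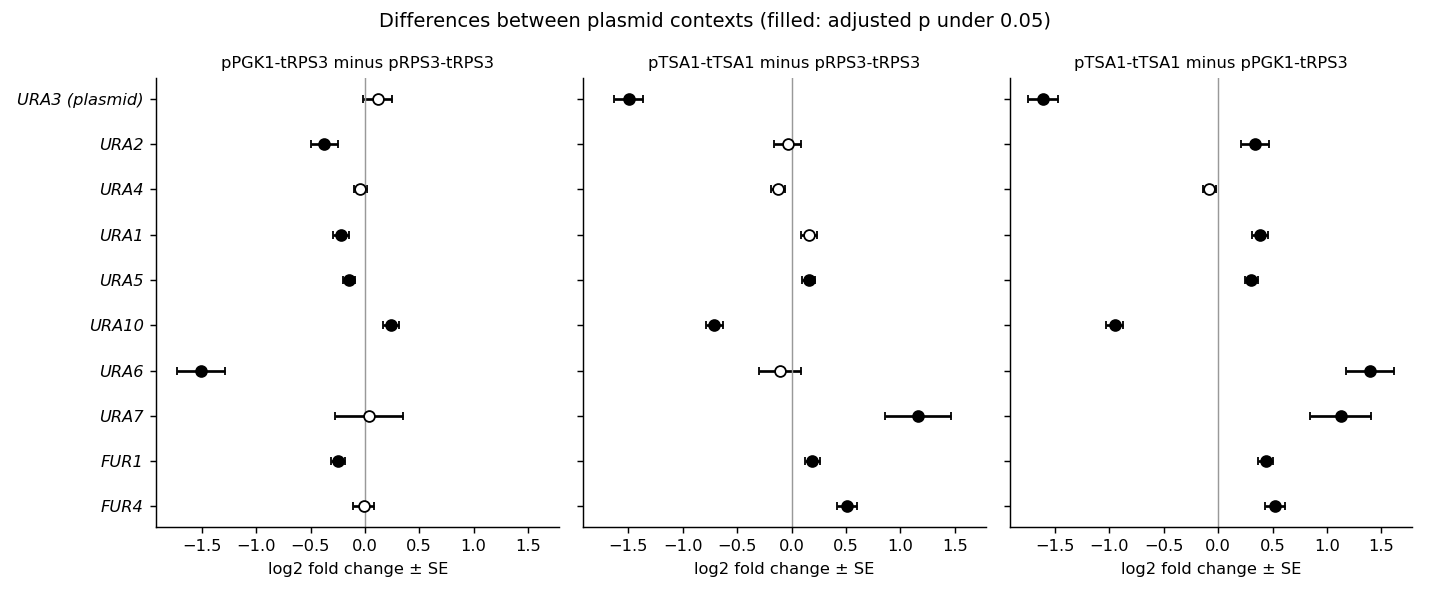
Log2 fold change ± SE of each gene (horizontal axis) for the 3 differences between contexts, from the fit over 34 libraries; filled symbols have an adjusted p under 0.05. Plasmid URA3 stands at −1.50 and −1.61 and URA10 at −0.71 and −0.95 in both comparisons with pTSA1-tTSA1, while URA4 is open in all 3 panels.

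Of the first genes of the pathway, URA2 was lower with pPGK1-tRPS3 than with either other context. URA4 did not pass in the 3 comparisons of the main fit, with TMM scaling, 34 libraries and only plasmid terms. URA2 had its lowest, median and highest levels at 2366, 2588 and 3404 CPM with pRPS3-tRPS3, at 673, 2056 and 2825 CPM with pPGK1-tRPS3, and at 1981, 2565 and 2924 CPM with pTSA1-tTSA1. All 3 contexts overlapped, and the low end of pPGK1-tRPS3 is the library that stood apart. The edgeR log2 fold change of URA2 between pPGK1-tRPS3 and pRPS3-tRPS3 was −0.37 (SE 0.12, adjusted p = 0.0187), and it was −0.26 without that library and −0.59 without the other replicate of the same plasmid. Against pPGK1-tRPS3, URA2 was higher by 0.34 with pTSA1-tTSA1 (SE 0.13, adjusted p = 0.0238), by 0.22 without that library and by 0.55 without the other. Both calls were lost without replicate 1 of pPGK1-tRPS3 modNTN (−0.33 and 0.29), and the second also with only the groups compared (0.33, adjusted p = 0.0675). URA4 was at 148, 190.0 and 239 CPM, 142, 167 and 213 CPM, and 139, 166 and 199 CPM in the same order of contexts. Its log2 fold changes were −0.04 (SE 0.06) for pPGK1-tRPS3 minus pRPS3-tRPS3, −0.12 (SE 0.06) for pTSA1-tTSA1 minus pRPS3-tRPS3 and −0.08 (SE 0.06) for pTSA1-tTSA1 minus pPGK1-tRPS3. Under library totals the last became −0.30 and passed (edgeR adjusted p = 0.00214). URA4 also passed for pTSA1-tTSA1 minus pRPS3-tRPS3 when at least 10 counts in every library were required (−0.14, adjusted p = 0.0427), and without replicate 4 of pRPS3-tRPS3 modNNN (−0.15, adjusted p = 0.0355).

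URA1, whose enzyme makes the orotate that URA5 and URA10 consume, was lowest with pPGK1-tRPS3. Its lowest, median and highest levels were 602, 737 and 1133 CPM with pRPS3-tRPS3, 502, 621 and 781 CPM with pPGK1-tRPS3, and 611, 849 and 903 CPM with pTSA1-tTSA1. Only the lowest pTSA1-tTSA1 library fell under 781 CPM, so these contexts nearly separate, whereas pRPS3-tRPS3 overlaps both. The log2 fold change was 0.38 between pTSA1-tTSA1 and pPGK1-tRPS3 (SE 0.07, edgeR adjusted p = 8.04e-05). Between pPGK1-tRPS3 and pRPS3-tRPS3 it was −0.22 (SE 0.07, adjusted p = 0.0171), and −0.19 (adjusted p = 0.0547) without replicate 1 of pPGK1-tRPS3 modNTN. Between pTSA1-tTSA1 and pRPS3-tRPS3 it was 0.16 (SE 0.07, adjusted p = 0.0731).

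Of the orotate phosphoribosyltransferase genes, URA10 was lower and URA5 higher with pTSA1-tTSA1, the second not under library totals. URA10, the minor one, had its lowest, median and highest levels at 34.5, 45.4 and 58.1 CPM with pRPS3-tRPS3, at 48.0, 53.7 and 63.4 CPM with pPGK1-tRPS3, and at 22.4, 28.8 and 33.1 CPM with pTSA1-tTSA1. The pTSA1-tTSA1 libraries overlapped neither of the others. The log2 fold change of URA10 was −0.71 against pRPS3-tRPS3 (SE 0.08, edgeR adjusted p = 2.85e-08) and −0.95 against pPGK1-tRPS3 (SE 0.08, adjusted p = 6.7e-11), and it was 0.24 between pPGK1-tRPS3 and pRPS3-tRPS3 (SE 0.07, adjusted p = 0.00984). URA5, the major one, was at 228, 292 and 353 CPM, 221, 256 and 308 CPM, and 279, 313 and 329 CPM in the same order. It was higher with pTSA1-tTSA1 than with pPGK1-tRPS3 by 0.30 (SE 0.06, adjusted p = 6.01e-05). Against pRPS3-tRPS3, URA5 gave 0.16 with pTSA1-tTSA1 (SE 0.06, adjusted p = 0.0241) and −0.15 with pPGK1-tRPS3 (SE 0.06, adjusted p = 0.0414), and each of these lost its call when single libraries were left out. The second was also lost in DESeq2 (adjusted p = 0.0551) and in edgeR with only the groups compared (adjusted p = 0.0944). URA10 made up 8.32% ± 1.04 of the summed counts of URA5 and URA10 with pTSA1-tTSA1 (SD, n = 10), 13.9% ± 2.49 with pRPS3-tRPS3 (SD, n = 12), 17.9% ± 2.44 with pPGK1-tRPS3 (SD, n = 10) and 18.5% ± 0.0926 in POT1-ccdB (SD, n = 2).

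Below the UMP step, URA6 was low with pPGK1-tRPS3. Its lowest, median and highest levels were 49.1, 79.8 and 108 CPM with pRPS3-tRPS3, 2.92, 27.0 and 57.8 CPM with pPGK1-tRPS3, and 46.1, 70.8 and 92.0 CPM with pTSA1-tTSA1. The highest pPGK1-tRPS3 libraries overlapped the lowest of the others. The log2 fold change was −1.51 against pRPS3-tRPS3 (SE 0.22, edgeR adjusted p = 9.06e-06), and −1.29 without the library that stood apart. Between pTSA1-tTSA1 and pPGK1-tRPS3 it was 1.40 (SE 0.22, adjusted p = 5.33e-06), and 1.18 without that library. URA6 also varied between libraries of the same plasmid, with a pooled SD of 0.68 on the log2 scale (18 degrees of freedom), beside 0.11 for URA5 and 0.16 for URA1. In those deviations it moved with the first component of the host features other than the members (r = −0.82). The component held 25.9% of the variance of those features within groups. The 34 libraries leave 18 degrees of freedom for this r and share the component's own features. URA4 moved with the component in the opposite sense (r = 0.75). With the component as a covariate, a choice made after seeing the data, the URA6 difference of pPGK1-tRPS3 from pRPS3-tRPS3 was −1.51 (SE 0.11). The component is centred within each plasmid and so holds no difference between contexts.

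URA7 counts ran from 0 to 30 per library. Its median was 3.45 CPM with pRPS3-tRPS3, 3.06 CPM with pPGK1-tRPS3 and 6.02 CPM with pTSA1-tTSA1, and the ranges overlapped. The log2 fold change with pTSA1-tTSA1 was 1.16 against pRPS3-tRPS3 (SE 0.30, edgeR adjusted p = 0.00215), but 2.17 when replicate 1 of pRPS3-tRPS3 WT was left out, since the remaining library of that plasmid had 0 counts. Against pPGK1-tRPS3 it was 1.13 (SE 0.28, adjusted p = 0.00125).

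Both genes of uracil uptake and salvage had their highest context median with pTSA1-tTSA1, though FUR1 there overlapped pRPS3-tRPS3 widely. FUR4, the permease, was at 16.9, 27.1 and 31.3 CPM with pRPS3-tRPS3, at 19.7, 24.8 and 36.3 CPM with pPGK1-tRPS3, and at 23.4, 35.8 and 41.0 CPM with pTSA1-tTSA1. A single pTSA1-tTSA1 library, replicate 2 of WT, lay within the range of pRPS3-tRPS3. Its log2 fold change with pTSA1-tTSA1 was 0.51 against pRPS3-tRPS3 (SE 0.09, edgeR adjusted p = 4.47e-05) and 0.52 against pPGK1-tRPS3 (SE 0.09, adjusted p = 2.2e-05). FUR1, which turns uracil into UMP, was at 149.5, 195 and 272 CPM, 145, 157 and 195 CPM, and 195, 211 and 288 CPM in the same order. It was higher with pTSA1-tTSA1 than with pPGK1-tRPS3 by 0.44 (SE 0.07, adjusted p = 3.67e-06), and lower with pPGK1-tRPS3 than with pRPS3-tRPS3, at −0.25 (SE 0.07, adjusted p = 0.00485). Against pRPS3-tRPS3 it gave 0.19 with pTSA1-tTSA1 (SE 0.07, adjusted p = 0.0182), a call that was lost without replicate 2 of pRPS3-tRPS3 modHTH or replicate 1 of pTSA1-tTSA1 modNTN (0.17 and 0.16). Under library totals the call was also lost (0.14, edgeR adjusted p = 0.0716). The FUR1 mean of pRPS3-tRPS3 modNNN, 245 CPM, lay within the plasmid means of pTSA1-tTSA1, 202 to 268 CPM.

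Against POT1-ccdB, the mean of the 15 reporter plasmids differed in 1 of the 9 chromosomal members, beside 12% of 5142 host features. That gene was URA10, which was lower in the reporter strains, as were 7.16% of host features. It stood at 55.7 and 54.5 CPM in POT1-ccdB, with a log2 fold change of −0.42 (SE 0.11, edgeR adjusted p = 0.0136). The call was lost without replicate 1 of POT1-ccdB (−0.40, adjusted p = 0.251) and without replicate 2 (−0.44, adjusted p = 0.0942). URA10 with pPGK1-tRPS3 (48.0 to 63.4 CPM) spanned the POT1-ccdB values, which lay above all pTSA1-tTSA1 libraries. FUR1 stood at 139 and 172 CPM in POT1-ccdB and differed by 0.29 (SE 0.11, adjusted p = 0.0906). URA1 stood at 621 and 676 CPM there and differed by 0.16 (SE 0.12, adjusted p = 0.465). The culture state list summed to 2602 and 3322 CPM in POT1-ccdB, and its part in the URA10 difference was not tested. The URA3 level of POT1-ccdB is not known, so these differences cannot be set against it.

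No member passed for any terminator when averaged over the 3 contexts. Against modNNN, 0 of 10 members passed for WT, modNTN, modNAA and modHTH in edgeR, beside 0.0583%, 0.0194%, 0% and 0.505% of all features, and 1, 2, 2 and 3 members had an unadjusted p under 0.05, as did 297, 285, 337 and 588 of 5144 features. The DESeq2 test called 0, 0, 0 and 1 members, beside 3, 1, 0 and 56 of 5144 features. The edgeR count for modNAA changed when replicate 1 of pPGK1-tRPS3 modNAA was left out, a fit with a single library of that plasmid. Plasmid URA3 gave 0.52 for modNAA (SE 0.16, adjusted p = 0.656) and 0.34 for modNTN (SE 0.16, adjusted p = 0.891). Within pRPS3-tRPS3, 2 members passed for modHTH, beside 3.05% of all features and 1.61% that were lower: URA1 fell by 0.65 on the log2 scale (SE 0.15, adjusted p = 0.0154) and FUR1 by 0.57 (SE 0.13, adjusted p = 0.0193). This contrast rests on 2 libraries against 4. In the other 11 contrasts within a context 0 members passed in edgeR, beside 0.253%, 0.622% and 0.0194% of all features for WT, modNTN and modNAA in pRPS3-tRPS3, 0.544% for modHTH in pPGK1-tRPS3 and 0% in the other 7. DESeq2 called 2 members each for WT and modNTN in pRPS3-tRPS3, beside 68 and 70 of 5144 features. The differences of the same effects from those in pPGK1-tRPS3 and pTSA1-tTSA1 were tested in 8 contrasts, and no member passed in any of them, where 0.0194% to 0.117% of all features did (0.0583%, 0.0194%, 0.0389% and 0.117% for WT, modNTN, modNAA and modHTH in pPGK1-tRPS3).

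The pRPS3-tRPS3 modNNN libraries, which are the reference of those contrasts, held the 2 highest URA1 levels of the 34 libraries. Their URA1 stood at 1133, 1092, 892 and 814 CPM where plasmid URA3 stood at 3059.9, 3580, 4243 and 5415 CPM. URA1 was lower in each of these 4 libraries that had more plasmid URA3. The 2 libraries of pRPS3-tRPS3 modHTH had URA1 at 602 and 648 CPM and URA3 at 4641 and 4408 CPM. In pTSA1-tTSA1 modNAA, URA1 stood at 851 and 611 CPM where URA3 stood at 1907 and 3499 CPM, and the second of these is at once the lowest URA1 and the highest URA3 of its context. In pPGK1-tRPS3 modNTN, URA1 stood at 502 and 656 CPM where URA3 stood at 8196 and 4765 CPM, the first of these being the highest URA3 of the 32 libraries. In pPGK1-tRPS3 modNAA, URA1 differed at almost the same URA3, with 781 and 590.0 CPM beside 6436 and 6413 CPM. In pPGK1-tRPS3 WT, URA1 was close, at 601 and 642 CPM, where URA3 stood far apart at 6986 and 2999 CPM.

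**Figure D3:**
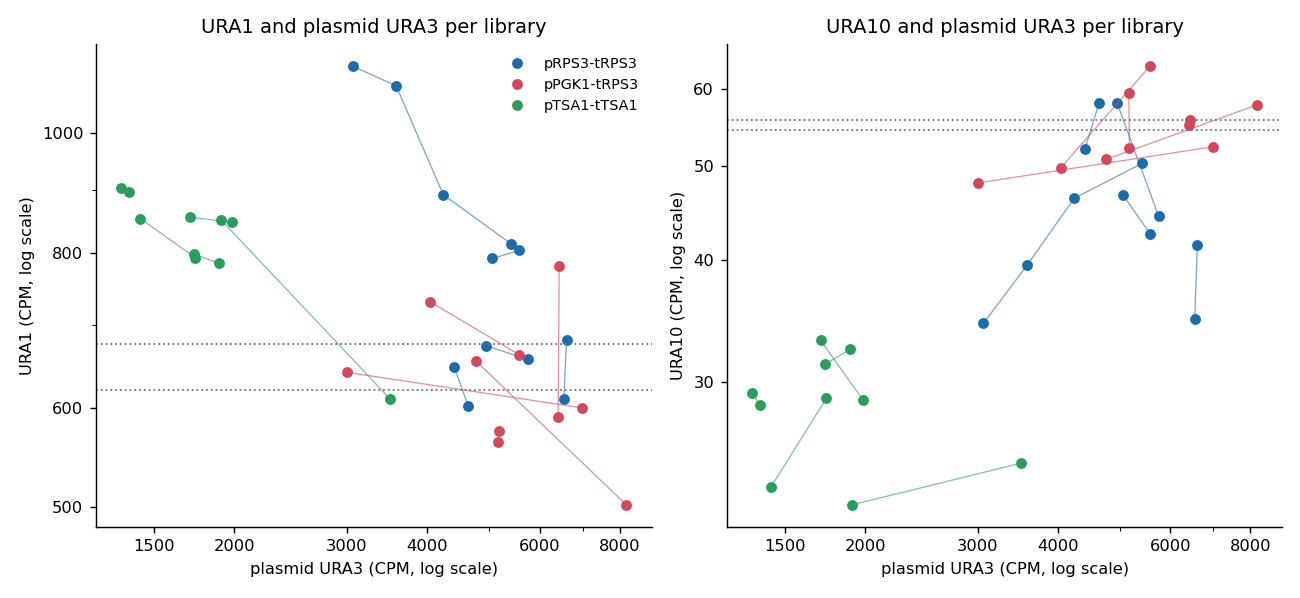
URA1 (left) and URA10 (right) against plasmid URA3, all in CPM on log axes, in the 32 reporter libraries; lines join libraries of the same plasmid in the order of their URA3, and dotted lines mark the 2 POT1-ccdB libraries. URA1 is lower in the library with more URA3 in 10 of the 14 plasmids with 2 libraries, some of them with nearly equal URA3, and its slope did not pass. The URA10 values of pTSA1-tTSA1 lie at 22.4 to 33.1 CPM, below both dotted lines.

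Over the 14 reporter plasmids with 2 libraries, the library with more plasmid URA3 had less URA1 in 10 and more in 4. For FUR1 it was also less in 10 and more in 4, and for FUR4 less in 9 and more in 5. For URA10 and for URA4 it was more in 9 and less in 5. URA2 was more in 8 and less in 6, URA7 more in 6 and less in 8, and URA5 and URA6 split 7 to 7. The same counts were not made over all features, so they do not show whether any member stands out. Pairs with nearly equal URA3 also count in full, such as pPGK1-tRPS3 modHTH (5164 and 5174 CPM) and pRPS3-tRPS3 WT (6609.5 and 6545 CPM). The edgeR fit with 1 term per plasmid and log2 URA3 as a covariate left only such differences between libraries of the same plasmid. In it 0 of 9 members passed, beside 0.0389% of 5137 features, and 2 members had an unadjusted p under 0.05, as did 479 features. URA1 gave −0.33 log2 units per doubling of URA3 (SE 0.10, adjusted p = 0.302), and URA10 gave 0.25 (SE 0.12, adjusted p = 0.513). The URA1 slope was negative within each context, at −0.57 (SE 0.21) with pRPS3-tRPS3, −0.18 (SE 0.12) with pPGK1-tRPS3 and −0.49 (SE 0.19) with pTSA1-tTSA1, and none of these passed. URA4 gave 0.13 (SE 0.10, adjusted p = 0.754), and the slopes of the other members lay between −0.65 for URA7 (SE 0.48) and −0.05 for URA6 (SE 0.36). Of the chromosomal genes named above as activated by Ppr1, URA1 thus had a negative slope and URA4 and URA10 positive ones. The 2 features that passed were mCherry, on the same plasmid, with 0.97 (SE 0.10, adjusted p = 1.78e-06), and YDR248C with 1.06 (SE 0.19, adjusted p = 0.0226).

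Without terms for plasmid or context, differences between contexts enter the slope. Then 6 of 9 members passed, beside 51.4% of all features. URA10 rose by 0.46 log2 units per doubling of URA3 (SE 0.06, adjusted p = 7.31e-08). URA1 gave −0.20 (SE 0.05, adjusted p = 0.00176), URA5 −0.13, URA7 −0.68, FUR1 −0.18 and FUR4 −0.28. With context in place of plasmid, the URA10 slope was 0.06 (SE 0.11, adjusted p = 0.860) and the URA1 slope −0.39 (SE 0.09, adjusted p = 0.123). Context and URA3 level cannot be told apart in the slope without those terms.

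**Figure D4:**
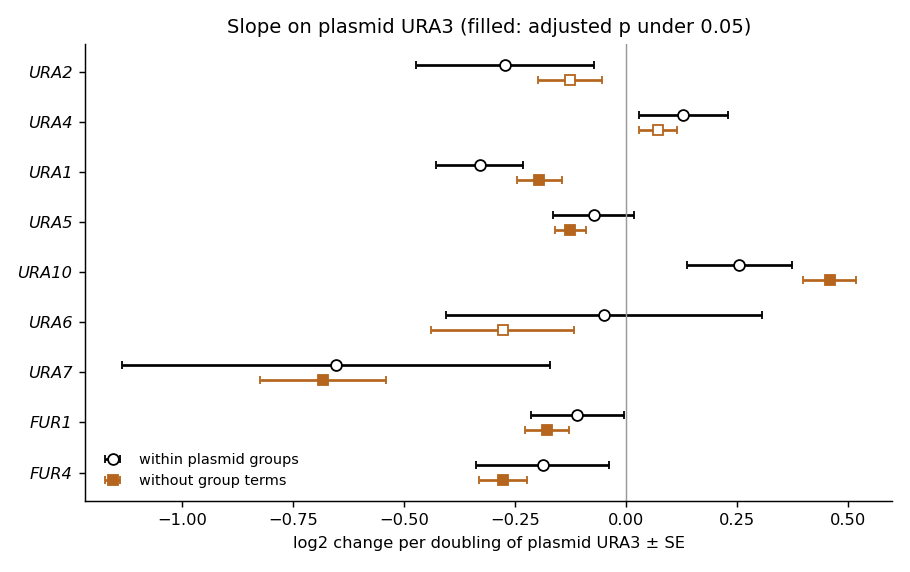
Log2 change of each gene per doubling of plasmid URA3 ± SE (horizontal axis), from fits of 32 libraries with 1 term per plasmid (circles) and without such terms (squares); filled symbols have an adjusted p under 0.05. No circle is filled, and URA10 moves from 0.25 to 0.46 and URA1 from −0.33 to −0.20.

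The ratio of URA1 to plasmid URA3 counts combines both levels. Between pTSA1-tTSA1 and pRPS3-tRPS3 it follows mostly URA3 (log2 fold change −1.50), since the URA1 difference of 0.16 did not pass. URA1 counts were 48.1% ± 14.4 of the plasmid URA3 counts with pTSA1-tTSA1 (SD, n = 10), 17.2% ± 8.41 with pRPS3-tRPS3 (SD, n = 12) and 12.3% ± 4.52 with pPGK1-tRPS3 (SD, n = 10). The lowest pTSA1-tTSA1 library stood at 17.5% and the highest pRPS3-tRPS3 library at 37.0%, so these contexts overlapped.

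Of the plasmid URA3 gene count, 66.8% ± 3.15 lay at ends within 200 nt of the stop codon (SD, n = 32), and the shares below are of those ends alone. Over the 32 reporter libraries, 26.9% ± 0.986 of the ends within 200 nt (SD, n = 32) fell at position 16, 23.1% ± 1.18 at position 13 and 22.0% ± 1.63 at position 22. The share at position 16 was 27.2% with pRPS3-tRPS3, 26.8% with pPGK1-tRPS3 and 26.6% with pTSA1-tTSA1. A 2-sided permutation test of 100000 resamples gave an adjusted p of 0.282 for pRPS3-tRPS3 against each other context and of 0.736 between those 2. The test exchanged single libraries between contexts without terms for plasmid or terminator, so libraries of the same plasmid counted as separate. The share of ends within 5 nt of position 16 was 63.96% with pPGK1-tRPS3, 65.9% with pRPS3-tRPS3 and 66.2% with pTSA1-tTSA1, and there pPGK1-tRPS3 differed from both (adjusted p = 9e-05 for each). Position 13 held 24.4% ± 0.700 with pTSA1-tTSA1 (SD, n = 10) against 22.9% ± 0.886 with pRPS3-tRPS3 (SD, n = 12) and 22.2% ± 0.708 with pPGK1-tRPS3 (SD, n = 10), while position 22 held 20.1%, 22.4% and 23.4%. The mean position was 15.6 nt with pTSA1-tTSA1, 16.1 nt with pRPS3-tRPS3 and 16.3 nt with pPGK1-tRPS3, and the same test on it passed for all 3 pairs (adjusted p = 0.00018, 0.00018 and 0.0471 for pTSA1-tTSA1 against pRPS3-tRPS3, against pPGK1-tRPS3, and for pPGK1-tRPS3 against pRPS3-tRPS3). Each of these differences is below 1 nt.

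**Figure D5:**
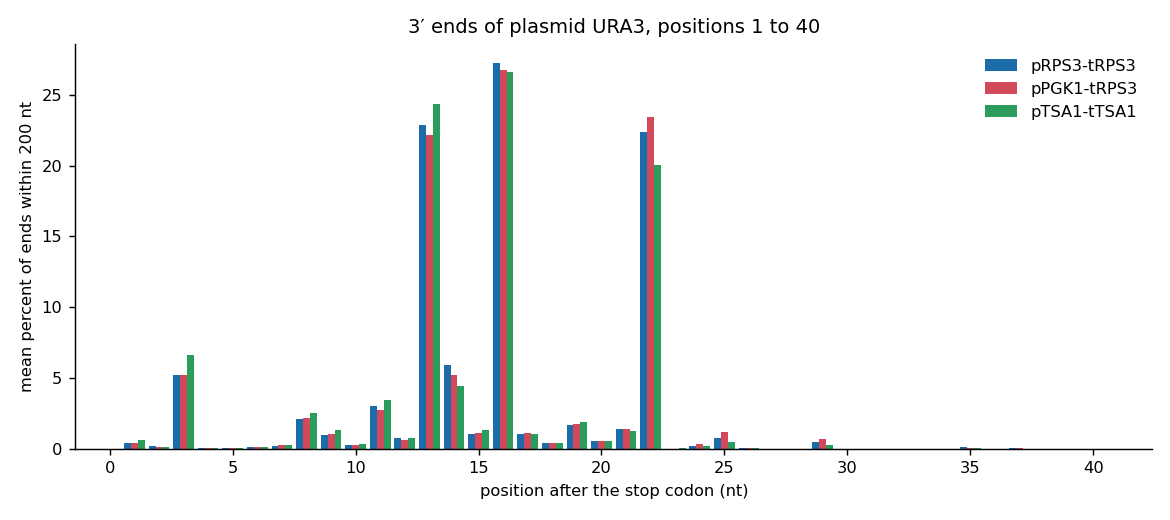
Mean percent of plasmid URA3 3′ ends (vertical axis, of all ends within 200 nt of the stop codon) at positions 1 to 40 after the stop codon, by context (12, 10 and 10 libraries). Positions 13, 16 and 22 lead in every context, and pTSA1-tTSA1 is the highest of the 3 at position 13 and the lowest at position 22.

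Other genes of nucleotide supply were read beside the members. In a list of 21 pyrimidine salvage, nucleotide and regulator genes, 19 were tested, and PPR1 was not among them. Between pTSA1-tTSA1 and pRPS3-tRPS3, 8 rose and 8 fell, beside 24.2% and 23.8% of all features, with a median of −0.10. URA8, the minor CTP synthetase, fell by 0.76 (SE 0.07, edgeR adjusted p = 2.31e-10). FUI1, the uridine permease, rose by 0.91 (SE 0.09, adjusted p = 1.26e-09), and RNR1, the large subunit of ribonucleotide reductase, rose by 0.90 (SE 0.11, adjusted p = 1.47e-07). Between pPGK1-tRPS3 and pRPS3-tRPS3, 1 rose and 6 fell, beside 17.7% and 20.6% of all features, among them the small subunit genes RNR4 at −1.10 (SE 0.24, adjusted p = 0.000741) and RNR2 at −1.09 (SE 0.24, adjusted p = 0.000701). Between pTSA1-tTSA1 and pPGK1-tRPS3, 9 rose and 7 fell, beside 32.1% and 29.0% of all features, with a median of 0.17. Against POT1-ccdB, 4 fell, beside 7.16% of host features, and none rose, and on the slope within plasmids 0 of 19 passed.

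Most purine synthesis genes fell with pTSA1-tTSA1. Of 15 genes in the list, 12 fell and 0 rose with pTSA1-tTSA1 against pRPS3-tRPS3, where 23.8% of all features fell, with a median of −0.96 beside 0.01 over all features. The largest were ADE17 at −2.38 (SE 0.10, adjusted p = 2.86e-16), ADE2 at −1.98 (SE 0.10, adjusted p = 1.36e-14), ADE1 at −1.55 (SE 0.09, adjusted p = 1.39e-13) and ADE13 at −1.36 (SE 0.08, adjusted p = 4.65e-13), all by edgeR, and all encode enzymes of that pathway. With pPGK1-tRPS3 against pRPS3-tRPS3, 12 fell and 1 rose, where 20.6% of all features fell, with a median of −0.35. With pTSA1-tTSA1 against pPGK1-tRPS3, 11 fell and 2 rose, where 29.0% of all features fell. Against POT1-ccdB, 8 fell and 0 rose, where 7.16% of host features fell, and on the slope within plasmids 0 passed. Of the culture state list, 1 of 8 rose and 6 fell with pTSA1-tTSA1 against pRPS3-tRPS3, where 24.2% and 23.8% of all features did. In the same list 6 rose and 0 fell with pPGK1-tRPS3 against pRPS3-tRPS3, where 17.7% of all features rose. With pTSA1-tTSA1 against pPGK1-tRPS3, 1 rose and 7 fell, where 32.1% and 29.0% of all features did. In the reporters against POT1-ccdB, 0 rose and 7 fell, where 7.16% of host features fell.

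Across the group means of log2 CPM, the host features most like URA1 over 16 plasmid groups were LHP1 (r = 0.88), SEC72, RPC40, NIP7 and YPQ2 (r = 0.84), of 3876 features with a mean of at least 20 CPM. Those most like URA4 were WRS1 (r = 0.82), YHB1, SNL1, SUI3 and RGP1 (r = 0.70). Those most like plasmid URA3 over 15 groups were OXR1 (r = 0.96), MIY3, YEL073C, COX26 and MHO1 (r = 0.95). Between members, URA10 had r = 0.83 with plasmid URA3 over the 15 group means and r = 0.52 over the replicate deviations of 32 libraries. For URA1 these were −0.67 and −0.73, and for URA5 −0.71 and −0.28. In a plasmid with 2 libraries the deviations are equal and opposite, so the 32 libraries leave 17 degrees of freedom. The groups share promoters and the libraries a common total, and the correlations are descriptions.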

How the data were processed

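Read counts per feature and counts of URA3 3′ ends at 200 positions were deposited by the authors without normalization, from QuantSeq REV libraries. Per the submitters' processing notes, the tools included cutadapt, HISAT2, featureCounts, bedtools and SAMtools, and the builds sacCer3 and R64. Versions are not given in the sources used here. All 4672 deposited transcripts that matched a RefSeq gene contain its R64 reading frame.

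Counts were fitted with edgeR 4.0.16 (quasi-likelihood, TMM, filterByExpr, 1 coefficient per plasmid group over 34 libraries; R 4.3.3), with Benjamini-Hochberg adjustment over all features tested and a threshold of 0.05. Plasmid rows were left out against POT1-ccdB. Standard errors come from the fold change and its F statistic. The fit was tested on simulated data. Alternatives were DESeq2 1.42.0, library totals, other filters, fewer groups, the replicate block, a residual component (chosen after seeing the data) and each library left out. The members, lists and named genes were chosen with earlier results of these data known. By rule, all members, the 5 host features most like URA1, URA4 and URA3, and at most 4 genes per list were named. YDR248C and the mCherry slope were named after their values were seen. A gene of the nucleotide list that the rule would name is not reported here.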

Additional observations from a re-analysis of the deposited data

Results flagged for a closer look

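A library was picked out where its gap to the next exceeded the Dixon limit for its group of 4 or 10 libraries, in 36 such groups. Chance alone picks out about 1 in 20. Replicate 2 of pTSA1-tTSA1 modNAA had the highest plasmid URA3 of its context at 3499 CPM, with the next at 1986 CPM, and the lowest URA1 at 611 CPM, with the next at 785 CPM. Replicate 2 of pPGK1-tRPS3 modNAA had the lowest URA2 of its context at 673 CPM, with the next at 1869.9 CPM. FUR4 was highest in replicate 2 of pPGK1-tRPS3 modNTN at 36.3 CPM and lowest in replicate 2 of pTSA1-tTSA1 WT at 23.4 CPM. URA5 was lowest in replicate 1 of pTSA1-tTSA1 WT at 279 CPM. In replicate 2 of pTSA1-tTSA1 WT, 60.04% of the plasmid URA3 gene count lay within 200 nt of the stop codon, the lowest of its context.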

How the results depend on the processing

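Counts of members called stayed within 1.5 times under most settings. Library totals in place of TMM moved the median of all features by 0.17 (pPGK1-tRPS3 minus pRPS3-tRPS3) and −0.22 (pTSA1-tTSA1 minus pPGK1-tRPS3). In the first comparison they left 2 of 10 members called, beside 2571 of 5144 features. URA4, URA5 and FUR4 turned there to 0.129, 0.0189 and 0.161, which are −0.04, −0.15 and −0.01 after that shift is taken off. With only the groups compared, FUR4 was 0.00112. For the reporters against POT1-ccdB, that setting is the same fit and was not run. The residual component as a covariate gave 3 members against POT1-ccdB, beside 1006 of 5142 features. It gave 1 for modHTH over 3 contexts, beside 129 of 5144 features, where DESeq2 also gave 1, beside 56. DESeq2 gave 2 each for WT and modNTN in pRPS3-tRPS3, beside 68 and 70 of 5144 features. The slope without group terms gave 6, beside 2641 of 5137 features. Slopes per context turned URA4 to −0.0424 and URA6 to 0.732 (pRPS3-tRPS3), FUR1 to 0.0162 (pPGK1-tRPS3), and URA4 to −0.148 and URA6 to 0.976 (pTSA1-tTSA1). For URA3 ends, counting all within 5 nt gave differences of −1.92, 0.34 and 2.27 percentage points, and mean positions differed by 0.23, −0.50 and −0.73 nt. The causes were not tested.

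With each library left out in turn, the counts were 3 to 6, 5 to 7, 8 to 9 for the contexts (3 without replicate 1 of pPGK1-tRPS3 modNTN), 0 to 1 against POT1-ccdB (0 without either of its libraries), 0 to 2 for modNAA over 3 contexts (2 without replicate 1 of pPGK1-tRPS3 modNAA) and 0 to 0 for the other terminators and the slope. Values that changed sign ranged, for pPGK1-tRPS3 minus pRPS3-tRPS3, from −0.154 to 1.05 for URA7, −0.0974 to 0.0561 for FUR4 and −0.0364 to 0.205 for plasmid URA3, from −0.0524 to 0.348 for URA7 against POT1-ccdB, and from −0.35 to 0.24 for the URA6 slope. The share of ends at position 16 differed by −0.55 to −0.22, −0.84 to −0.35 and −0.40 to 0.10 percentage points (0.10 without replicate 2 of pTSA1-tTSA1 modNTN).

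No pairing by replicate number was seen across the groups as a whole. Deviations of replicate 1 libraries correlated at −0.39 to 0.60 over 120 group pairs, with a median of 0.02. Pairing within some of the groups was not tested, and the labels do not say which libraries were prepared together. The replicate block gave 5, 7 and 9 members for the contexts, beside 1919, 2446 and 3189 of 5144 features. It gave 1 against POT1-ccdB, beside 708 of 5142 features. It gave 0 for WT, modNTN, modNAA and modHTH over 3 contexts, beside 2, 1, 0 and 22 of 5144 features. On the slope it gave 0, beside 1 of 5137 features. Under the block URA4 passed for pTSA1-tTSA1 minus pRPS3-tRPS3 (−0.15, edgeR adjusted p = 0.0343), and URA5 did not for pPGK1-tRPS3 minus pRPS3-tRPS3 (−0.14, adjusted p = 0.0573). With the residual component, URA4 and URA1 passed for pTSA1-tTSA1 minus pRPS3-tRPS3 (adjusted p = 0.0453 and 0.0362). At 0 to 30 counts, URA7 is limited by depth.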

Other observations

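The share of plasmid URA3 reads that ended within 200 nt of the stop codon was lower with pTSA1-tTSA1, where 60.04% to 63.9% of the gene count fell there, than with pRPS3-tRPS3 (66.7% to 69.9%) or pPGK1-tRPS3 (65.9% to 71.3%). The pTSA1-tTSA1 libraries overlapped neither of the others, and the difference was not tested.

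The ratio of URA1 to URA4 counts was 4.99 ± 0.456 with pTSA1-tTSA1 (SD, n = 10), 4.25 ± 0.688 with pRPS3-tRPS3 (SD, n = 12), 4.16 ± 0.156 in POT1-ccdB (SD, n = 2) and 3.66 ± 0.610 with pPGK1-tRPS3 (SD, n = 10). The 3 reporter contexts overlapped.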
